A study of Mus musculus with 24 samples.

Results

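T cells and killer lymphocytes of the mouse mammary gland were followed through 35 genes that these cells are known for. The genes were taken from a list of names, and every non-control probe that carried 1 of those names was collected. This gave 64 probes of 56605 on the array. Of the 35 genes, 31 had a probe bright enough to be tested, out of 22389 genes tested in all. The arrays compared homozygous wild-type C57BL/6 mice with C57BL/6 mice carrying the R96C change of SOCS2 on both alleles, a knock-in. The tissue was the inguinal mammary gland, taken whole after its lymph node had been cut out. There were 7 wild-type and 7 knock-in virgin females 8 weeks old, and 5 wild-type and 5 knock-in females at day 18 of pregnancy, whose age the labels do not give. Each array is labelled with 1 mouse number, and the labels name no restriction of the knock-in to a cell type. In whole tissue, fewer cells of a type and less RNA per cell cannot be told apart.

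A T cell recognises a peptide through its receptor, which signals through the CD3 chains and the zeta chain. The coreceptors CD4 and CD8 bind the presenting molecule and bring the kinase LCK to the receptor. LCK phosphorylates the receptor's chains, and the kinase ZAP70, which binds them, then phosphorylates the adaptor LAT. Killer T cells and natural killer cells store granzymes, which are proteases, together with perforin, which opens the target cell's membrane. SOCS2 is a feedback inhibitor of cytokine and growth hormone signalling, and T cells live in the gland both in its fatty stroma and between epithelial cells.

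Levels below are log2 of the scanner's processed signal minus the 75th percentile of that array, so a level of 0 equals that percentile. A difference of 1 on this scale is a doubling of the signal. A gene was called where limma's adjusted p, by the Benjamini-Hochberg method over all 22389 genes, was under 0.05. The arrays limit precision by their number. Spots well above background numbered 33374 to 43055 of 59305 on 23 arrays, and 57003 on the array of knock-in virgin mouse 376. The negative-control signal of that array was 332, against 19.4 to 41.4 on the others. The array of knock-in day 18 mouse 184 had the second highest number of spots above background, 43055. In knock-in virgin mouse 198, luminal epithelial markers averaged -3.48, the lowest of the 24 animals, and skeletal muscle markers averaged 8.12, the highest. Results that rest on the arrays of mice 376, 184 and 198 are given with and without these 3 arrays. Skeletal muscle markers also averaged 7.12 in wild-type virgin mouse 320 and 6.46 in knock-in day 18 mouse 211. The medians of their groups were -3.03 and 1.68. The arrays of mice 320 and 211 stayed in when the 3 were left out, so muscle-rich arrays remain in those values. The tissue label was held against marker lists: luminal markers averaged between 0.62 and 2.93 in the 7 wild-type virgins and between -3.48 and 1.81 in the 7 knock-in virgins. At day 18 they averaged between 4.37 and 4.82 in wild-type and between 4.55 and 5.09 in knock-in glands, and the lowest array means of fibroblast and adipocyte markers were 3.66 and 2.04.

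The genes that define the lineage were present. The tested probes of Cd3d, Cd3e, Cd3g, Cd247 and Cd4 were well above background on all 24 arrays. The tested Cd8a probe was well above background in 6 of 7 virgins of each genotype and in all 5 day 18 animals of each genotype. Other probes of these genes were too dim to be tested for Cd4 (3 arrays well above background each), Cd247 (2 to 11 arrays) and Cd8a (4 arrays), so these genes rest on 1 probe each. The tested probes of Bcl11b, Gzmk, Sh2d1a and Tcf7 were also above background on only some arrays. The probes of Trat1, Cd27, Ctla4 and Foxp3 did not pass the filter on dim probes, which asked for 80% of the arrays of at least 1 group. Gzmk passed it only through the day 18 groups and Sh2d1a only through the virgin groups, so the direction of their stage differences is in part set by the filter. Foxp3, the factor of regulatory T cells, was well above background on 3 arrays of each virgin group, on 0 wild-type and on 1 knock-in day 18 array.

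The promoters of 4 members are shown whose genes rose at day 18 in wild-type glands: a receptor chain, a coreceptor and killer proteases. Each sequence is the 250 bases before the start of transcription, from RefSeq's annotation of GRCm38.p6, read 5′ to 3′ on the gene's strand. RefSeq's table held 24 of the 35 genes, 19 of them with 1 start, and Cd7 was not among the 24. Capitals mark the letters of 4 motifs searched on both strands: TGTGGT for RUNX factors, AGGAAG for ETS factors, CTTTGA for TCF and LEF factors and GTGTGA for T-box factors.
Cd3e, chr9:45009612-45009861, minus strand: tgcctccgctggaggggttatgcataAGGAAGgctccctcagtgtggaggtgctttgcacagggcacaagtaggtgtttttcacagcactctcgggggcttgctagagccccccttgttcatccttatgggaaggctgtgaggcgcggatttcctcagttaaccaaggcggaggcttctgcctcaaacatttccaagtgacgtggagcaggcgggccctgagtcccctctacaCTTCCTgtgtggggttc
Cd8a, chr6:71373177-71373426, plus strand: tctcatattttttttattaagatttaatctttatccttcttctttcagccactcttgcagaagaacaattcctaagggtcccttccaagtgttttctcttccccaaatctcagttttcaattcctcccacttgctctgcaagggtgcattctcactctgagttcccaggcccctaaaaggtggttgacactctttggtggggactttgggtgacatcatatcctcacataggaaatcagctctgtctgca
Gzma, chr13:113100982-113101231, minus strand: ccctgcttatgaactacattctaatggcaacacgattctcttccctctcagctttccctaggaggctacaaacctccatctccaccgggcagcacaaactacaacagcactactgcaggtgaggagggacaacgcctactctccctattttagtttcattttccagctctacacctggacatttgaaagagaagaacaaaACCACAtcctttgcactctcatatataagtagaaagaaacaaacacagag
Gzmb, chr14:56262335-56262584, minus strand: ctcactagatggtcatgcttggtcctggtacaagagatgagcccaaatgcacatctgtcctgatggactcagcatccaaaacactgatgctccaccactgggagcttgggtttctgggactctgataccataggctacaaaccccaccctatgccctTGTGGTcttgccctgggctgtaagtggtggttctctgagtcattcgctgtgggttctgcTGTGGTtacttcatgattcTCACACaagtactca
The Cd3e promoter held the ETS letters at 2 places, whose first bases lie 224 and 17 bases before the start. The Gzma promoter held the RUNX letters once, 50 bases before the start. The Gzmb promoter held the RUNX letters 93 and 34 bases before the start and the T-box letters 15 bases before it. The Cd8a window held none of the 4 sets of letters. Among all 32851 promoters of this length, 14% held the RUNX letters, 29.5% the ETS letters, 13.8% the TCF and LEF letters and 12.3% the T-box letters. Among 32 promoters of members, several starts of a gene counted separately, the shares were 28.1%, 50%, 18.8% and 25%. A match describes the letters only.

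The first question was how T cell and killer genes differ between the virgin gland and the gland at the end of pregnancy, in each genotype. In wild-type glands 11 of the 31 tested members rose by day 18, 5 fell and 15 were not called. Among all genes, 20.9% rose and 20.9% fell, so the share of members that rose was above that background and the share that fell was near it. The members' median difference was 0.44, against 0.01 for all genes. In knock-in glands 7 members rose, 3 fell and 21 were not called, where 22.9% of all genes rose and 20.3% fell. Their median difference was 0.33, against 0.05 for all genes. The share that rose in knock-in glands was therefore near the background.

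Members that rose in both genotypes were Cd3e, Cd247, Cd7, Gzma and Gzmb. Gzmk was also called higher in both, though the filter in part set its direction. Cd3d, Cd3g, Cd4, Cd8a and Cd8b1 were called higher in wild-type glands and missed the threshold in knock-in glands, and Lck was called in knock-in glands alone. Cd2, Icos and Thy1 fell in both genotypes. Tcf7 and Klrk1 fell in wild-type glands and missed the threshold in knock-in glands. Gzmk passed the filter only where it was high, and without it 10 members rose in wild-type and 6 in knock-in glands. All 31 members had the same sign in both genotypes, while without the 3 arrays the sign of Sh2d1a differed between the genotypes. The filter in part set the signs of Gzmk and Sh2d1a. In a test of the difference between the genotypes' stage effects, 0 of 31 members and 0% of all genes were called by limma, and 0 members reached an unadjusted p under 0.05 against 228 of all genes, so no member was shown to respond differently. Without the 3 arrays named above, 12 members rose and 7 fell in wild-type glands, where 31.2% and 28.8% of all genes did, and 9 rose and 3 fell in knock-in glands, where 27.5% and 27% did.

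**Figure D1:**
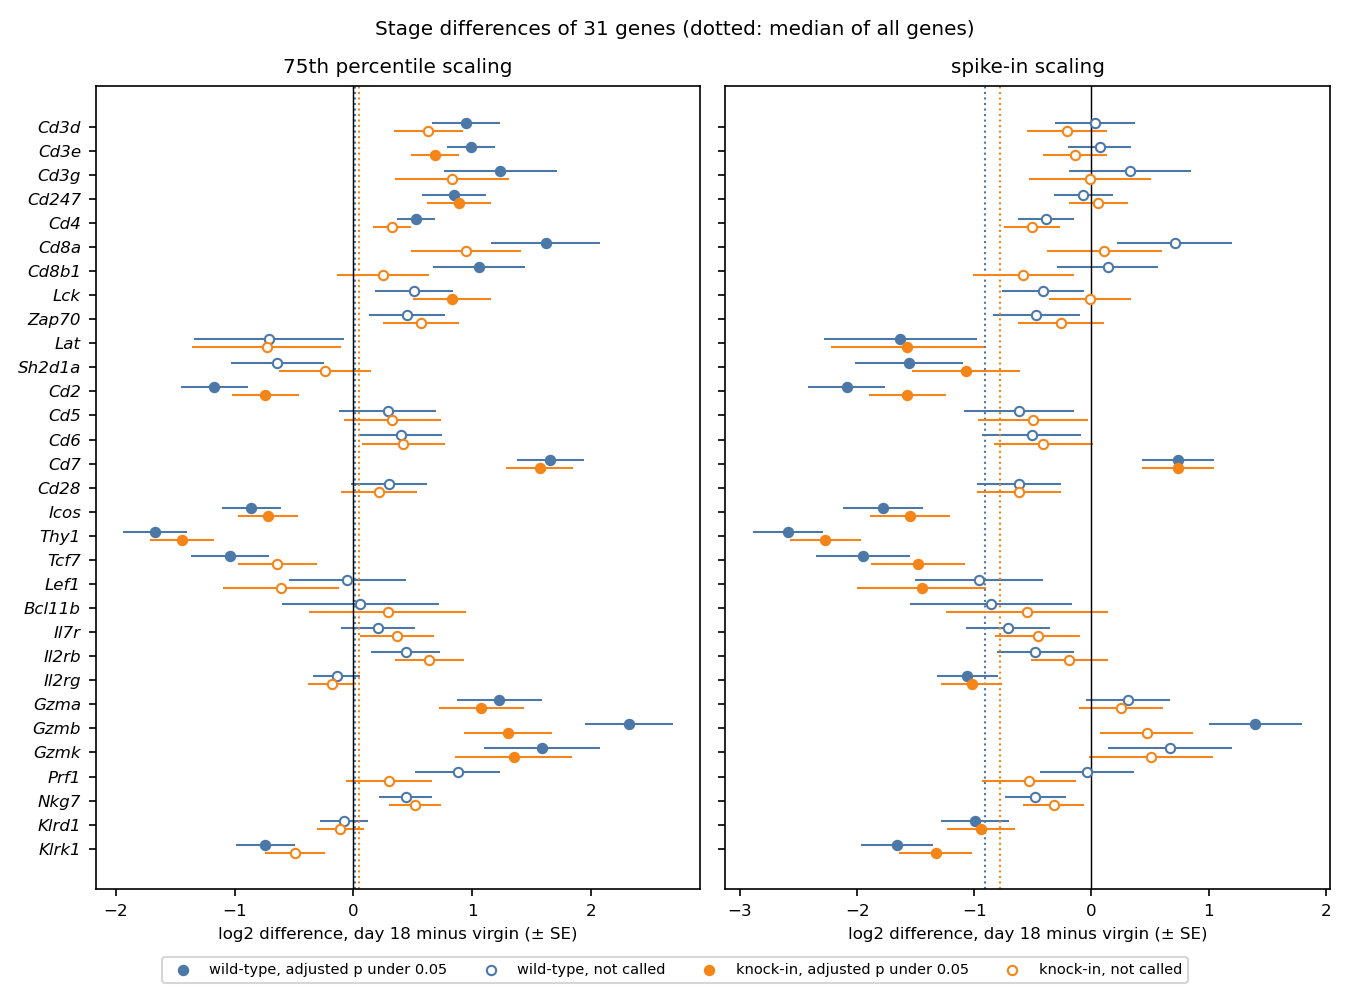
Differences between day 18 and virgin glands (log2, points with standard errors) for the 31 tested members in wild-type and knock-in glands, with the median of all genes as a dotted line. The left panel uses the 75th percentile of each array and the right panel the spike-in controls, where the whole set of genes lies lower, at a median of -0.91 in wild-type and -0.78 in knock-in glands, and only Cd7 and Gzmb in wild-type and Cd7 in knock-in glands stay called higher.

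The direction on this scale depends on what the arrays are scaled to. Scaled to Agilent's spike-in controls, the median of all genes fell by 0.91 in wild-type and by 0.78 in knock-in glands, and scaled to each array's median it stood at 0.21 and 0.25. With spike-in scaling 2 members were called higher and 9 lower in wild-type glands, where 5.11% and 61.1% of all genes were, and 1 higher and 10 lower in knock-in glands, where 6.13% and 52% were. With median scaling 8 members were higher and 0 lower in wild-type glands, where 12% and 9.91% of all genes were, and 5 higher and 0 lower in knock-in glands, where 10.8% and 9.77% were. These 3 scalings shift all genes of an array alike, so they leave the members' place relative to the median of all genes as it is: 21 of 31 lay above it in each genotype. After quantile normalization 23 did in wild-type and 22 in knock-in glands. Every rise or fall named below is on the 75th percentile scale, and spike-in values follow where the sign turned.

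**Figure D2:**
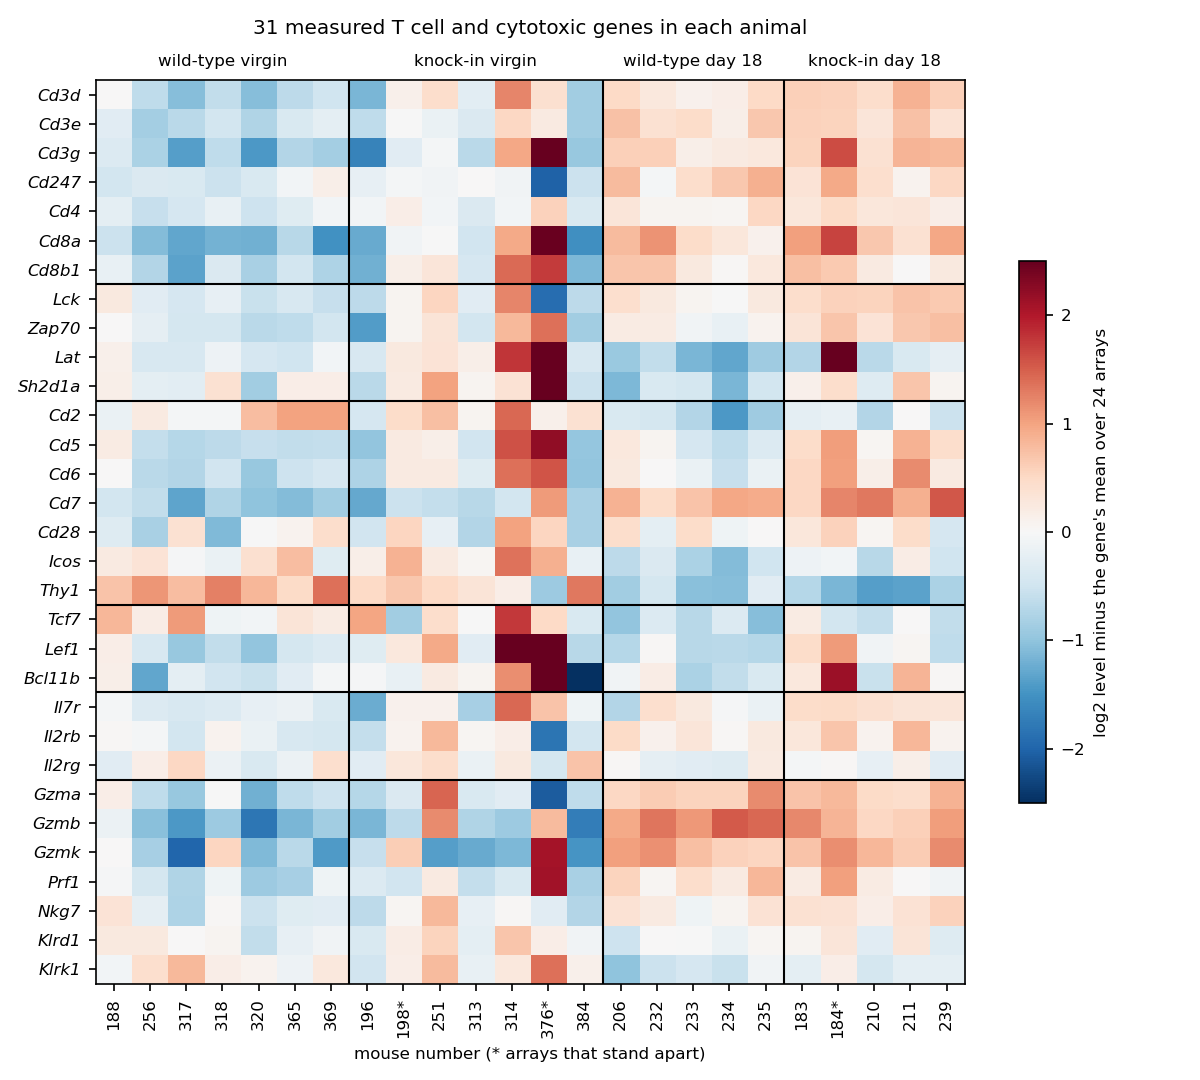
Level of each tested member in each of the 24 animals as a difference from that gene's mean over all animals (log2, colour scale), with animals in columns by group and genes in rows by role. On this 75th percentile scale most receptor genes and the granzymes are lower in wild-type virgins than at day 18, a direction that turns for Cd4 and Cd247 with spike-in scaling, and the knock-in virgins vary most from animal to animal, with mouse 376 the highest of its group for 15 of 31 genes.

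The receptor complex and its coreceptors rose together in wild-type glands, with 7 of 7 genes called, a median difference of 0.99, and 7 of 7 above the median of all genes, also after quantile normalization. In knock-in glands 2 of 7 were called, with a median of 0.69, and 5 of 7 without the 3 arrays, with a median of 0.74. With spike-in scaling 5 of 7 were above 0 in wild-type and 2 of 7 in knock-in glands, and 0 were called in either. The mean level of the 7 genes ran from -2.01 to -1.37 in wild-type virgins and from -0.85 to -0.45 in wild-type day 18 glands, so the groups did not overlap. It ran from -1.97 to -0.19 in knock-in virgins and from -0.69 to -0.14 in knock-in day 18 glands, which overlapped.

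Cd3e encodes the epsilon chain of CD3. Its levels in wild-type virgins ran from -1.21 through a median of -0.81 to -0.60, and in wild-type day 18 animals they were -0.20, 0.02, 0.10, 0.31 and 0.37. Every pregnant wild-type gland was above every virgin one. The difference was 0.99 ± 0.20 (SE, 7 and 5 animals), a 1.99-fold rise (limma adjusted p = 0.000301, exact two-sided permutation p = 0.00126, the smallest these groups allow). Such exact p-values were computed for the 31 members in 4 comparisons, 124 in all, and are unadjusted. In knock-in virgins the levels ran from -1.22 through -0.53 to 0.16, the highest in mouse 314, and in knock-in day 18 animals they were -0.06, 0.00, 0.21, 0.23 and 0.37. These groups overlapped through the virgin mouse 314. The difference was 0.69 ± 0.20 (limma adjusted p = 0.00676), and -0.14 with spike-in scaling. A second, dimmer Cd3e probe gave 1.19 ± 0.40 (limma adjusted p = 0.0193) in wild-type but 0.07 ± 0.40 (adjusted p = 0.915) in knock-in glands, so the knock-in call rests on 1 of 2 probes.

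Cd3d and Cd3g encode the delta and gamma chains and lie beside Cd3e on chromosome 9, with probes 12.4 kb (Cd3e to Cd3d) and 16.6 kb (Cd3d to Cd3g) apart in mm9. Cd3d ran from -2.19 through -1.75 to -1.12 in wild-type virgins and was -1.01, -0.96, -0.85, -0.63 and -0.62 in wild-type day 18 glands. It rose by 0.95 ± 0.29 (limma adjusted p = 0.0102), with no overlap. In knock-in virgins it ran from -2.26 through -1.0 to 0.10, against -0.69, -0.54, -0.53, -0.52 and -0.26 at day 18, which overlap, and the difference was 0.63 ± 0.29 (limma adjusted p = 0.0834). Its second probe gave 0.97 and 0.68, on the same sides of the threshold. Cd3g ran from -3.83 through -3.19 to -2.74 in wild-type virgins and was -2.26, -2.17, -2.13, -1.81 and -1.81 at day 18. It rose by 1.24 ± 0.48 (limma adjusted p = 0.0405) without overlap, a call that was kept in 14 of the 24 fits that leave out 1 array. Without the 3 arrays the adjusted p was 0.00169. In knock-in glands Cd3g ran from -4.08 through -2.68 to 0.36 in virgins, with mouse 376 highest, and was -2.02, -1.85, -1.59, -1.56 and -0.77 at day 18. The difference of 0.83 ± 0.48 was not called (limma adjusted p = 0.173), and without the 3 arrays it was 1.12 ± 0.35 (adjusted p = 0.011).

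Cd247 encodes the zeta chain. It ran from 1.93 through 2.08 to 2.61 in wild-type virgins and was 2.41, 2.91, 3.15, 3.26 and 3.36 at day 18. The pregnant mouse 232 lay within the virgin range. The rise was 0.85 ± 0.27 (limma adjusted p = 0.0158), and -0.07 with spike-in scaling. In knock-in virgins it ran from 0.44 in mouse 376 through 2.38 to 2.47, and at day 18 it was 2.56, 2.81, 2.89, 2.98 and 3.41. These groups did not overlap, the only such member that was higher in knock-in glands, where 12.6% of all genes were higher without overlap and 7.65% lower. The difference was 0.89 ± 0.27 (limma adjusted p = 0.0111), and 0.52 ± 0.18 without the 3 arrays (adjusted p = 0.0187). Of 4 Cd247 probes this was the only 1 that passed the filter. The mean level of the tested probe over the arrays was 2.47, and those of the other probes were -5.38, -5.77 and -7.05. The probes of this gene thus differ widely in level, and the reason was not tested.

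Cd4 encodes the coreceptor of helper T cells and was read from the only 1 of its probes that passed the filter. It ran from -0.49 through -0.22 to 0.03 in wild-type virgins and was 0.13, 0.15, 0.16, 0.39 and 0.60 at day 18. The groups did not overlap, and the rise was 0.53 ± 0.16, or 1.44-fold (limma adjusted p = 0.00911); with spike-in scaling it was -0.39. In knock-in glands it ran from -0.29 through 0.03 to 0.67 in virgins, with mouse 376 highest, and was 0.25, 0.37, 0.38, 0.39 and 0.56 at day 18. The difference of 0.33 ± 0.16 was not called (limma adjusted p = 0.0983); without the 3 arrays the groups did not overlap and it was 0.45 ± 0.13 (adjusted p = 0.006).

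Cd8a and Cd8b1 encode both chains of the killer T cell coreceptor, and their probes lie 42.0 kb apart on chromosome 6. Cd8a ran from -5.61 through -5.29 to -4.65 in wild-type virgins and was -3.99, -3.83, -3.65, -3.32 and -2.98 at day 18. Every pregnant gland was above every virgin one, and the rise was 1.62 ± 0.46, or 3.08-fold (limma adjusted p = 0.00616). Cd8a in knock-in virgins ran from -5.63 through -4.20 to -1.64, with mouse 376 highest, and was -3.72, -3.44, -3.13, -3.07 and -2.41 at day 18. The groups overlapped through mice 314 and 376, and the difference of 0.95 ± 0.46 was not called (limma adjusted p = 0.101). Without the 3 arrays it was 1.23 ± 0.36 (adjusted p = 0.00718). Cd8b1 ran from -3.43 through -2.81 to -2.26 in wild-type virgins and was -2.05, -1.83, -1.82, -1.40 and -1.39 at day 18. It rose by 1.06 ± 0.39 without overlap (limma adjusted p = 0.0325), and the call was lost when any 1 of mice 317, 320, 206 or 232 was left out. In knock-in glands the virgins ran from -3.29 through -1.94 to -0.34, the day 18 values were -2.08, -1.85, -1.84, -1.43 and -1.33, and the difference was 0.25 ± 0.39 (limma adjusted p = 0.641), with an interval of 2 SE to each side from -0.53 to 1.03.

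**Figure D3:**
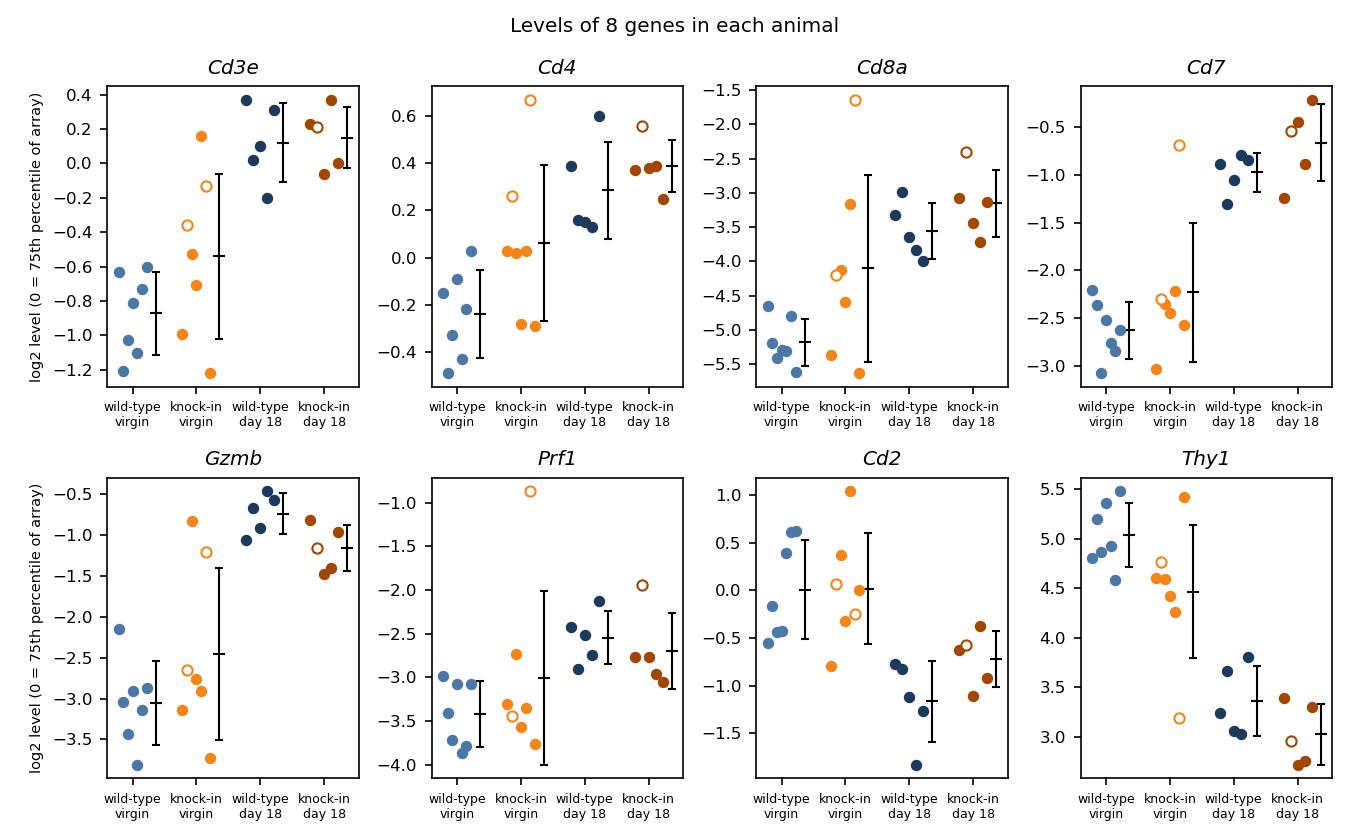
Level (log2 relative to the 75th percentile of the array) of 8 members in each animal, as 1 point per animal with the group mean ± SD beside it and open points for mice 376, 184 and 198. Cd3e, Cd8a, Cd7 and Gzmb are higher and Thy1 lower in all wild-type day 18 animals than in all wild-type virgins; with spike-in scaling the Cd3e difference is 0.07 in wild-type and -0.14 in knock-in glands.

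Of the signalling genes behind the receptor, 0 of 4 tested were called in wild-type glands, with a median difference of -0.10, and 1 in knock-in glands, with a median of 0.17. That gene was Lck, the kinase that the coreceptors carry. Sh2d1a is counted in both medians, and the filter in part set its direction. Lck ran from -2.52 in mouse 376 through -0.91 to 0.59 in mouse 314 among knock-in virgins and was -0.18, -0.07, -0.04, 0.03 and 0.09 at day 18. The groups overlapped through mice 251 and 314, and the difference was 0.83 ± 0.33 (limma adjusted p = 0.0432). The call rested on few arrays: it was kept in 15 of 24 fits that leave out 1 array, the value was 0.56 without the 3 arrays (adjusted p = 0.107), and -0.01 with spike-in scaling. In wild-type glands Lck ran from -1.20 through -1.03 to -0.37 in virgins and was -0.64, -0.56, -0.38, -0.37 and -0.21 at day 18, which overlap, and it differed by 0.51 ± 0.33 (limma adjusted p = 0.225). Zap70, the kinase that binds the phosphorylated chains, differed by 0.45 ± 0.32 in wild-type and 0.57 ± 0.32 in knock-in glands (limma adjusted p = 0.276 and 0.155), and in knock-in glands by 0.84 ± 0.30 without the 3 arrays (adjusted p = 0.0243).

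The adaptor genes tested were Lat and Sh2d1a. Lat, the scaffold that ZAP70 phosphorylates, ran from -3.84 through -3.76 to -3.23 in wild-type virgins and was -4.64, -4.50, -4.28, -4.23 and -3.96 at day 18. These groups did not overlap, yet the difference of -0.71 ± 0.63 was not called (limma adjusted p = 0.391); the spread shared over the 4 groups includes mouse 376 at 0.97 and mouse 184 at -0.70. Without the 3 arrays the value was the same and its adjusted p was 0.0281, and in knock-in glands it was -0.80 ± 0.31 (adjusted p = 0.0349). Sh2d1a, the adaptor SAP of the SLAM receptors, was not called in either genotype. Since its probe passed the filter only through the virgin groups, no size or p of its stage difference is given. It was well above background in 1 of 5 wild-type and 2 of 5 knock-in day 18 arrays.

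Among 7 tested surface, adhesion and costimulation genes, 1 rose and 3 fell in both genotypes, and the medians were 0.29 in wild-type and 0.22 in knock-in glands. Cd7, a surface protein of T and natural killer cells, was the member that rose under every scaling in both genotypes. It ran from -3.08 through -2.63 to -2.21 in wild-type virgins and was -1.30, -1.05, -0.89, -0.84 and -0.79 at day 18. The rise of 1.66 ± 0.28, or 3.16-fold (limma adjusted p = 4.27e-05), came with no overlap. In knock-in virgins Cd7 ran from -3.04 through -2.35 to -0.69, with mouse 376 alone within the day 18 range, and was -1.24, -0.88, -0.54, -0.44 and -0.21 at day 18. The rise was 1.57 ± 0.28 (limma adjusted p = 7.47e-05), and 1.83 ± 0.21 without the 3 arrays, where the groups did not overlap. With spike-in scaling it was 0.74 in each genotype (limma adjusted p = 0.0369 in wild-type and 0.0428 in knock-in glands). A second Cd7 probe gave 1.75 (adjusted p = 0.0117) in wild-type and 1.17 (adjusted p = 0.088) in knock-in glands.

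Thy1, a surface protein of mouse T cells that fibroblasts also carry, fell. It ran from 4.58 through 4.93 to 5.48 in wild-type virgins and was 3.03, 3.06, 3.24, 3.66 and 3.81 at day 18. The groups did not overlap, and the level fell by 1.67 ± 0.27 on the log2 scale, or 3.19-fold (limma adjusted p = 2.6e-05). In knock-in virgins it ran from 3.19 in mouse 376 through 4.59 to 5.42 and was 2.72, 2.76, 2.96, 3.30 and 3.39 at day 18. Mouse 376 alone gave the overlap, and the level fell by 1.44 ± 0.27 (limma adjusted p = 0.000137). With median scaling the values were -1.48 and -1.24, not called (limma adjusted p = 0.0673 and 0.134). The fibroblast list moved with Thy1: 7 of 7 fibroblast markers fell in each genotype, and their mean level lay between 5.87 and 6.34 in virgins of the wild type and between 4.19 and 6.49 in virgins of the knock-in, and at day 18 between 3.84 and 4.63 in the wild type and between 3.66 and 4.85 in the knock-in. Their part in the fall of Thy1 was not tested.

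Cd2 encodes an adhesion receptor of T and natural killer cells. It ran from -0.55 through -0.16 to 0.62 in wild-type virgins and was -1.83, -1.27, -1.12, -0.83 and -0.77 at day 18, with no overlap. It fell by 1.17 ± 0.28 (limma adjusted p = 0.00168), and a second probe fell by 1.01. In knock-in virgins it ran from -0.80 through 0.00 to 1.04 and was -1.11, -0.92, -0.63, -0.57 and -0.37 at day 18, which overlap. Cd2 fell by 0.74 ± 0.28 there (limma adjusted p = 0.0373). The second probe gave -0.71 ± 0.28 and was not called (limma adjusted p = 0.0512), so the knock-in call rests on 1 of 2 probes. Icos, the inducible costimulator of activated T cells, ran from -3.90 through -3.38 to -2.84 in wild-type virgins and was -4.69, -4.39, -4.26, -4.11 and -3.96 at day 18. Its fall of 0.86 ± 0.25 came without overlap (limma adjusted p = 0.00713). In knock-in virgins Icos ran from -3.79 through -3.38 to -2.24 and was -4.30, -4.10, -3.73, -3.67 and -3.42 at day 18, which overlap. It fell by 0.72 ± 0.25 (limma adjusted p = 0.0212), but the value was -0.60 without the 3 arrays (adjusted p = 0.0687), 0.02 after normexp background correction and 0.25 within slide 3. Slide 3 held 1 knock-in day 18 array and 2 knock-in virgin arrays. Cd5 and Cd6 encode inhibitory receptors, and their probes lie 71.2 kb apart on chromosome 19. Both genes and Cd28, the main costimulator of naive T cells, had differences of 0.22 to 0.42 and were not called in either genotype. A second Cd5 probe gave 0.01 in wild-type and -0.40 in knock-in glands and was not called in either.

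Of 3 tested transcription factors, 1 fell in wild-type glands and 0 were called in knock-in glands, with medians of -0.05 and -0.61. Tcf7 encodes TCF1, a factor of naive and memory T cells. It ran from -3.50 through -3.19 to -2.34 in wild-type virgins and was -4.46, -4.39, -4.10, -3.74 and -3.73 at day 18, with no overlap. It fell by 1.04 ± 0.33 (limma adjusted p = 0.0143), while a second probe gave -0.85 and was not called (adjusted p = 0.137). In knock-in virgins Tcf7 ran from -4.26 through -2.95 to -1.63 and was -4.02, -4.00, -3.86, -3.39 and -3.19 at day 18; the difference of -0.64 ± 0.33 was not called (limma adjusted p = 0.123). Lef1, the related factor, differed by -0.05 ± 0.49 in wild-type and -0.61 ± 0.49 in knock-in glands. Bcl11b, which keeps T cell identity, differed by 0.06 ± 0.66 and 0.29 ± 0.66. Neither was called, and the 2 SE intervals of Bcl11b ran from -1.26 to 1.37 and from -1.03 to 1.60.

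Of 3 cytokine receptor genes, 0 were called in either genotype, with medians of 0.21 and 0.37. Il7r, the receptor of the survival cytokine interleukin 7, differed by 0.21 ± 0.31 in wild-type and 0.37 ± 0.31 in knock-in glands. Il2rb, the shared beta chain of the interleukin 2 and 15 receptors, differed by 0.44 ± 0.29 and 0.64 ± 0.29 (limma adjusted p = 0.245 and 0.0776). Il2rg, the common gamma chain, had medians of 0.86 in wild-type virgins, 1.25 in knock-in virgins, 0.78 in wild-type and 0.95 in knock-in day 18 glands, and differences of -0.14 ± 0.20 and -0.18 ± 0.20 between the stages.

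Of 7 cytotoxic and killer receptor genes, 3 rose and 1 fell in wild-type glands, and 3 rose and 0 fell in knock-in glands, with medians of 0.88 and 0.52. Gzmk is counted among the 3 that rose in each genotype, and the filter in part set its direction. Gzmb, granzyme B, ran from -3.81 through -3.04 to -2.15 in wild-type virgins and was -1.06, -0.91, -0.67, -0.57 and -0.46 at day 18. Every pregnant gland was above every virgin one. The rise of 2.32 ± 0.37, or 4.99-fold (limma adjusted p = 3e-05), was the largest of the 31 members and stayed at 1.40 with spike-in scaling (adjusted p = 0.00394). In knock-in virgins Gzmb ran from -3.73 through -2.76 to -0.82, with mice 376 and 251 within the day 18 range, and was -1.48, -1.40, -1.15, -0.96 and -0.81 at day 18. The rise was 1.30 ± 0.37, or 2.47-fold (limma adjusted p = 0.00681), and 0.47 with spike-in scaling (adjusted p = 0.307). The difference between the genotypes' rises was -1.02 ± 0.53 (limma unadjusted p = 0.067, adjusted p = 1).

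Gzma and Gzmk, granzymes A and K, have probes 77.8 kb apart on chromosome 13. Gzma ran from -0.06 through 0.51 to 1.32 in wild-type virgins and was 1.67, 1.70, 1.71, 1.78 and 2.32 at day 18, with no overlap. It rose by 1.23 ± 0.36, or 2.34-fold (limma adjusted p = 0.00873). In knock-in virgins it ran from -0.93 in mouse 376 through 0.77 to 2.61 in mouse 251 and was 1.58, 1.62, 1.86, 1.96 and 2.01 at day 18; mouse 251 alone lay above the pregnant animals. The rise was 1.08 ± 0.36 (limma adjusted p = 0.0188), and 0.73 ± 0.35 without the 3 arrays (adjusted p = 0.0833). Gzmk ran from -6.65 through -5.50 to -4.14 in wild-type virgins, where it was well above background on 4 of 7 arrays, and was -4.14, -4.09, -3.91, -3.64 and -3.53 at day 18. The lowest pregnant and the highest virgin level were equal at 2 decimals. Since the Gzmk probe passed the filter only through the day 18 groups, no size or p of its stage difference is given for either genotype. In knock-in virgins Gzmk ran from -6.14 through -5.79 to -2.59 in mouse 376, with 2 of 7 arrays well above background, and was -4.04, -3.96, -3.84, -3.50 and -3.49 at day 18. These knock-in groups overlapped through mouse 376. The virgins in which Gzmk was well above background were mice 376 and 198, so without the 3 arrays 0 of 5 virgins had a measured level.

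Prf1, perforin, ran from -3.87 through -3.41 to -2.99 in wild-type virgins and was -2.91, -2.75, -2.52, -2.42 and -2.13 at day 18. The groups did not overlap, but the difference of 0.88 ± 0.36 missed the threshold (limma adjusted p = 0.0509); without the 3 arrays the adjusted p was 0.000534. In knock-in glands Prf1 ran from -3.77 through -3.35 to -0.87 in virgins, with mouse 376 highest, and was -3.06, -2.96, -2.77, -2.77 and -1.95 at day 18; the difference was 0.30 ± 0.36 (limma adjusted p = 0.528). Klrk1, the activating receptor NKG2D, went the other way. It ran from -2.18 through -1.88 to -1.24 in wild-type virgins and was -3.06, -2.60, -2.58, -2.48 and -2.14 at day 18. It fell by 0.74 ± 0.25 (limma adjusted p = 0.0185), with 1 pregnant animal inside the virgin range, and a second probe gave -0.97 and was not called (adjusted p = 0.138). In knock-in glands Klrk1 ran from -2.53 through -1.89 to -0.67 in virgins and was -2.49, -2.30, -2.29, -2.29 and -1.89 at day 18, a difference of -0.49 ± 0.25 (limma adjusted p = 0.113). Klrd1, the CD94 subunit of killer receptors, whose probe lies 14.1 kb from that of Klrk1 on chromosome 6, differed by -0.08 ± 0.20 and -0.11 ± 0.20. Nkg7, a protein of cytotoxic granules, differed by 0.44 ± 0.22 and 0.52 ± 0.22 (limma adjusted p = 0.117 and 0.0621).

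By separation of the groups, 10 members were higher without overlap in wild-type glands at day 18, where 20.3% of all genes were, and 5 were lower, where 18.9% were. The 10 were Cd3d, Cd3e, Cd3g, Cd4, Cd8a, Cd8b1, Cd7, Gzma, Gzmb and Prf1, and the 5 were Lat, Cd2, Icos, Thy1 and Tcf7. In knock-in glands Cd247 alone was higher without overlap, where 12.6% of all genes were, and 0 were lower, where 7.65% were. Without the 3 arrays Cd247, Cd4, Cd7 and Gzmk were higher, Gzmk against virgins not well above background, where 20.9% of all genes were, and Thy1 was lower, where 21.3% were.

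The counts of other T cell and killer genes stand beside 20.9% higher and 20.9% lower of all genes in wild-type and 22.9% and 20.3% in knock-in glands, and are not read as results about these lists. Of 33 tested genes of receptor signalling and T cell identity outside the 35, 5 rose and 8 fell in wild-type glands and 4 rose and 5 fell in knock-in glands, with medians of 0.10 and 0.18. Ptpn22, a phosphatase that restrains LCK, rose by 1.12 ± 0.24 in wild-type and 1.51 ± 0.24 in knock-in glands (limma adjusted p = 0.000634 and 2.38e-05). Cd226, an activating adhesion receptor, fell by 1.42 ± 0.31 and Lcp2, the adaptor SLP-76, fell by 1.31 ± 0.31 in wild-type glands (limma adjusted p = 0.000643 and 0.0015). In knock-in glands Cxcr6, a chemokine receptor of resident T cells, rose by 0.77 ± 0.16 and the chemokine gene Ccl5 rose by 1.27 ± 0.31 (limma adjusted p = 0.000499 and 0.00181). Of 10 tested checkpoint and regulatory T cell genes, 2 rose and 3 fell in each genotype. Lag3, an inhibitory receptor, fell by 1.38 ± 0.29 and 1.78 ± 0.29, and Havcr2, the inhibitory receptor TIM-3, rose by 1.60 ± 0.48 and 1.70 ± 0.48 (limma adjusted p = 0.00972 and 0.0061). Of 19 tested further killer cell genes, 4 rose and 4 fell in wild-type glands and 3 rose and 2 fell in knock-in glands. Il15, the cytokine that sustains killer lymphocytes, rose by 2.25 ± 0.25 and 2.17 ± 0.25 (limma adjusted p = 2.95e-07 and 4.34e-07), and Ctsw, a protease of killer cells, rose by 1.28 ± 0.32 and 1.14 ± 0.32.

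Markers of the other cells of the gland moved with stage beside these genes. Of 12 luminal epithelial markers, 7 rose in wild-type and 9 in knock-in glands, and of 6 adipocyte markers 4 fell in each. Of 15 macrophage and dendritic cell markers, 13 fell and 2 rose in each genotype, with medians of -1.38 and -1.21, and of 10 genes shared by all leukocytes 7 fell and 1 rose. The lymph node had been removed. Of 14 tested B and plasma cell markers, 4 rose and 2 fell in wild-type and 3 rose and 5 fell in knock-in glands, with medians of -0.62 and -1.11; their mean level lay between -4.11 and -2.82 in virgins of the wild type, between -3.81 and -1.26 in virgins of the knock-in, and at day 18 between -3.79 and -2.93 and between -3.90 and -2.28 in the same order. Of 8 tested lymph node stroma markers, 2 rose and 2 fell in each genotype; those that rose were Glycam1, which mammary epithelium also makes, and Madcam1. Their mean level lay between -2.13 and -0.43 in virgins of the wild type, between -2.37 and 0.02 in virgins of the knock-in, and at day 18 between -0.53 and 0.07 and between -1.22 and 0.81 in the same order. The part of these cells in the members' values was not tested.

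The second question was whether the SOCS2 change altered these genes. In virgin glands 0 of 31 members and 0% of all genes were called by limma between knock-in and wild-type animals. At an unadjusted p under 0.05 there were 7 members and 802 of all genes, and with array weights, which count variable arrays less, 0 members and 29 of all genes were called. The members' median difference was 0.33, against -0.05 for all genes, with 28 of 31 above 0. Without the 3 arrays the median was 0.15, 27 were above 0, and 0 members and 0.00447% of all genes were called. The direction turned with the scaling: centred on the median of each array, 11 of 31 were above 0 and the median was -0.09, where the median of all genes stood at -0.47. That scaling shifts all genes of an array alike, and relative to the median of all genes 29 of 31 lay higher with it as without it. After quantile normalization 19 of 31 did.

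No member separated the virgin groups without overlap, where 0.00893% of all genes lay higher and 0.00447% lower in every knock-in animal. The genes furthest apart in virgins were Lef1, Lat and Cd8a. Lef1 ran from -4.64 through -4.10 to -3.50 in wild-type and from -4.36 through -3.40 to -0.83 in knock-in virgins, with mice 376 and 314 far above the others. In the same mice the B and plasma cell markers averaged -1.26 and -1.59, against -3.81 to -2.93 in the other knock-in virgins, and their part in the members' values was not tested. The Lef1 groups overlapped, and the difference was 1.29 ± 0.45 (limma adjusted p = 0.702, exact two-sided permutation p = 0.0326, unadjusted), or 0.99 ± 0.42 without the 3 arrays. Lat differed by 1.12 ± 0.57, of which 0.55 remained without the 3 arrays, and Cd8a by 1.07 ± 0.42, of which 0.60 remained. Thy1 was the member furthest in the other direction, at -0.57 ± 0.24 (limma adjusted p = 0.702), or -0.38 without the 3 arrays. For the defining markers the 2 SE intervals of the difference were -0.03 to 0.70 for Cd3e, 0.02 to 0.59 for Cd4, 0.24 to 1.91 for Cd8a and -0.23 to 1.06 for Prf1.

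**Figure D4:**
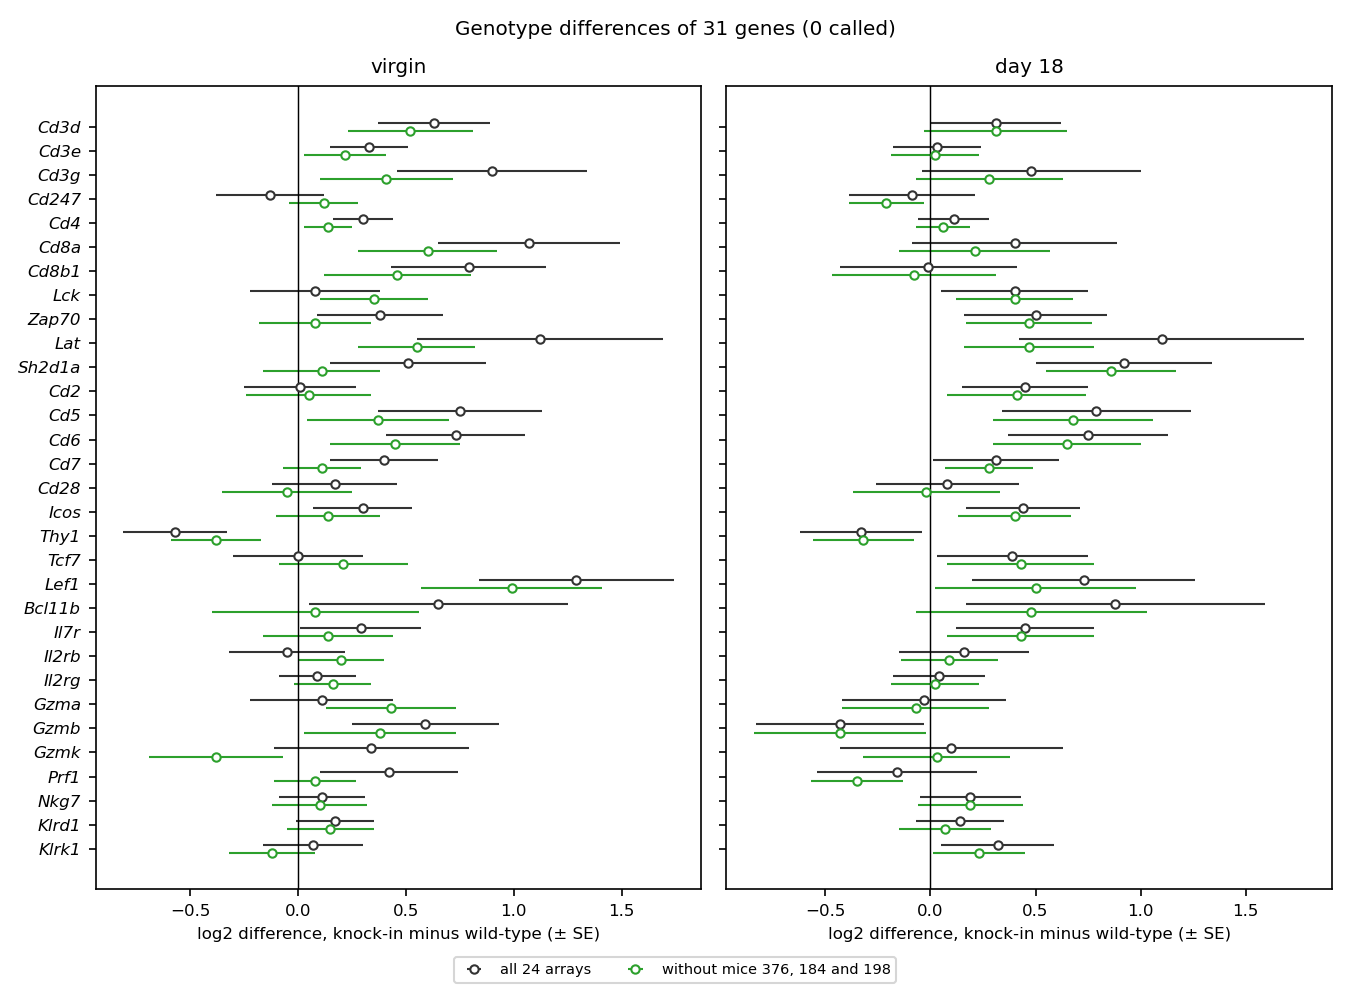
Differences between knock-in and wild-type glands (log2, points with standard errors) for the 31 tested members in virgin (left) and day 18 (right) animals, with all 24 arrays in black and without mice 376, 184 and 198 in green. With all arrays 0 were called, and 28 virgin and 25 day 18 values lie above 0; centred on each array's median, which moves the median of all genes to -0.47 and -0.42, 11 of 31 lie above 0 in each comparison.

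The knock-in virgins varied more than the wild-type virgins. The standard deviation among the 7 knock-in virgins was larger than among the 7 wild-type virgins for 31 of 31 members, with medians of 0.90 and 0.35, and for 89.5% of all genes. Without mice 376 and 198 it was larger for 28 of 31 members, with medians of 0.74 and 0.35, and for 52.7% of all genes. Mouse 376 had the highest level of its group for 15 of 31 members and the lowest for 6. With it left out, mouse 314 had the highest level for 19 of 31. Among wild-type virgins, mouse 188 had the highest level for 18 of 31. At day 18 the knock-in standard deviation was larger for 18 of 31 members, with medians of 0.31 and 0.28, and for 61.3% of all genes. Without mouse 184 it was larger for 14 of 31 members and for 51.6% of all genes. These counts are descriptions, since no test of spread was made.

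At day 18 of pregnancy 0 of 31 members and 0% of all genes were called between the genotypes by limma. At an unadjusted p under 0.05 there were 1 member and 441 of all genes, and with array weights 0 of all genes were called. The median difference of the members was 0.31, against 0.00 for all genes, with 25 of 31 above 0, and without the 3 arrays the median was 0.23 with 24 above 0. Centred on the median of each array, 11 of 31 were above 0 and the median was -0.10, where the median of all genes stood at -0.42. Relative to the median of all genes 25 of 31 lay higher, and 23 after quantile normalization. The signalling genes Lck, Zap70 and Sh2d1a lay higher in knock-in animals without overlap, where 0.442% of all genes did, and 0.63% when mouse 184 is left out. Sh2d1a was well above background on only 1 of 5 wild-type and 2 of 5 knock-in arrays, so no size or p is given for it. Lck was -0.64, -0.56, -0.38, -0.37 and -0.21 in wild-type and -0.18, -0.07, -0.04, 0.03 and 0.09 in knock-in animals, a difference of 0.40 ± 0.35. Zap70 was -1.69, -1.60, -1.41, -1.30 and -1.29 in wild-type and -1.18, -1.17, -0.83, -0.82 and -0.76 in knock-in animals, a difference of 0.50 ± 0.34. For both kinases all knock-in animals lay above all wild-type animals. For each kinase the exact two-sided permutation p was 0.00794, the smallest that 5 against 5 animals allow, unadjusted over the 31 members tested this way, and the limma adjusted p was 1. Any 5 against 5 animals without overlap give this exact p, so it restates the separation for which the kinases are named here. With median scaling Lck differed by -0.02 and Zap70 by 0.09.

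Lat differed by 1.10 ± 0.68 at day 18, and by 0.47 ± 0.31 without mouse 184 and the other 2 arrays. Lat was -0.70 in mouse 184 against -4.09, -4.03, -3.73 and -3.57 in the other knock-in animals, so most of the difference lay in 1 array. The values of Gzmb and Thy1 were -0.43 ± 0.40 and -0.33 ± 0.29. For the defining markers the 2 SE intervals were -0.40 to 0.46 for Cd3e, -0.23 to 0.44 for Cd4, -0.59 to 1.39 for Cd8a and -0.93 to 0.61 for Prf1. Over both stages together 29 of 31 members were above 0, with a median of 0.23, and 0 members and 0% of all genes were called by limma, where 9 members and 1160 of all genes had an unadjusted p under 0.05. With array weights 1 of all genes and 0 members were called. The stage and genotype comparisons share their arrays, so they are not independent of each other.

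The members varied together within the groups to different degrees. Each gene's deviations from its group means over the 24 arrays were correlated with those of Cd3e; the arrays share their scaling, and the correlations are descriptions. Of the 30 other tested members, 17 had r above 0.5, against 2.27% of all genes, and 19 had r above 0.5 on the 21 arrays left without the 3 named, against 3.92%. The closest were Cd6 (r = 0.90, and 0.93 on 21 arrays), Cd3d (0.86 and 0.86), Cd5 (0.81 and 0.85) and Cd8b1 (0.80 and 0.80). Lck had r = 0.31 on 24 and 0.79 on 21 arrays, and Lat 0.55 and 0.82, so both turn on the 3 arrays. Cd247 had -0.07 and 0.33. The granzymes that rose at day 18 also followed Cd3e weakly, with 0.06 and 0.36 for Gzma, 0.41 and 0.33 for Gzmb and 0.35 and 0.11 for Gzmk, as did Cd7 with 0.38 and 0.21. Thy1 had -0.40 and -0.29. Of genes outside the list that have a name, Rasal3 (0.73 and 0.86), Ptprcap (0.84 and 0.85) and Ccr7 (0.76 and 0.84) were closest on 21 arrays.

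**Figure D5:**
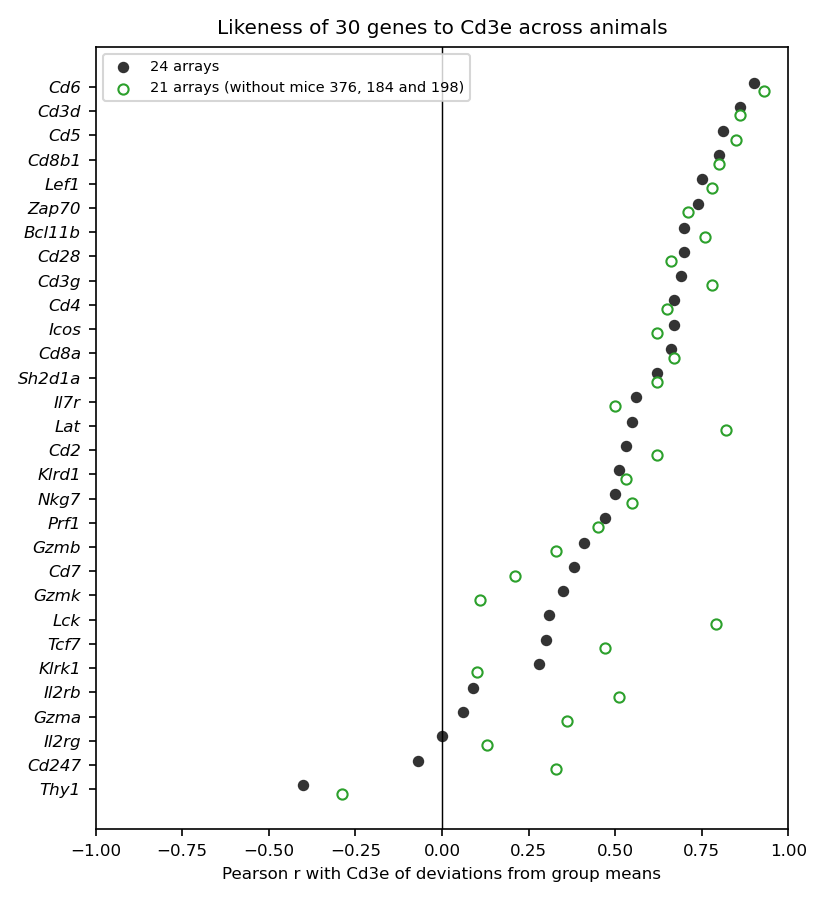
Pearson correlation of each member's deviations from its group means with those of Cd3e, over 24 arrays (filled points) and over the 21 arrays without mice 376, 184 and 198 (open points). Cd6, Cd3d, Cd5 and Cd8b1 lie at 0.80 or above in both, while Gzma, Gzmb, Gzmk, Cd7 and Cd247 lie below 0.5 in both and Thy1 below 0.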

How the data were processed

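Total RNA-derived cRNA of 24 inguinal mammary glands, 1 per mouse, was hybridised to 1-colour Agilent mouse expression arrays. Nothing in the labels says that samples of a group were other than separate animals; the p-values measure the spread between these samples. The deposited scanner files hold spot intensity from Agilent Feature Extraction 12.0.3.2 (protocol GE1_1200_Jun14), per the file headers, which already subtracts background. The authors' deposited value table holds log10 of the same processed signal, not centred (62969 features, smallest correlation 0.999985, column medians 1.31 to 3.23), and was used only for this check. From the deposited intensity, log2 values were computed, minus the 75th percentile of each array's non-control spots; outlier spots were left out (162 missing values). Probe positions are in mm9, per the file headers, and 35405 probes were named through RefSeq accessions, with 1 name changed.

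A probe was kept (35117 of 56605) if, in 1 group or more, 80% or more of its arrays showed it well above background, and each gene was read from its brightest kept probe. limma 3.58.1 in R 4.3.3 fitted a mean per group over all 24 arrays, with Benjamini-Hochberg adjustment over 22389 genes; intervals in the text are 2 standard errors to each side. Any member may be named, ordered by role and then adjusted p, with neighbouring genes kept together; values by animal (virgins as lowest, median and highest) are given for members called in any comparison and for Cd3e, Cd4, Cd8a and Prf1. Of each other list at most the 4 genes of smallest adjusted p per comparison are named. Values by animal of Zap70, Lat and Lef1 and the genes outside the list that resemble Cd3e were chosen after their values were seen. The members and lists were chosen with earlier results of these data known. The fit was tested on simulated data. Slides 1 to 3 each held all 4 groups. Alternatives were another scaling (array median, quantile, 7 spike-in probes), normexp with an offset of 50, other filters, slide as a block, array weights, only the groups compared and arrays left out.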

Additional observations from a re-analysis of the deposited data

Results flagged for a closer look

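Within groups of 5 and 7 animals, 8 of 124 sets of levels had an animal whose gap to its nearest neighbour exceeded, as a share of the group's range, Dixon's critical value for its size. Chance marks about 1 in 20 such groups. Among knock-in virgins all of them were mouse 376, whose array had the highest background: its Cd247 level was the lowest at 0.44 (nearest 1.93), its Cd7 level the highest at -0.69 (nearest -2.22) and its Prf1 level the highest at -0.87 (nearest -2.74). Among knock-in day 18 animals both were mouse 184, with Lat at -0.70 (nearest -3.57) and Prf1 at -1.95 (nearest -2.77). In wild-type virgins Cd5 was highest in mouse 188 at -2.44 (nearest -3.22). In wild-type day 18 glands Lef1 was highest in mouse 232 at -3.62 (nearest -4.33) and Gzma in mouse 235 at 2.32 (nearest 1.78).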

How the results depend on the processing

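The count of members called between the stages was 16 in wild-type and 10 in knock-in glands. Median scaling gave 8 and 5, and a fit on only the groups compared gave 23 in wild-type and 3 in knock-in glands. Leaving out 1 array at a time gave 13 to 18 in wild-type and 6 to 15 in knock-in glands. The shares of all genes are not given for the fit on only the groups compared or for the leave-out fits. Their counts therefore describe the processing and are not read as results about the members. Genotype and interaction counts were 0 under every alternative run. With spike-in scaling the sign turned for the called members Cd247 (-0.07) and Cd4 (-0.39) in wild-type and for Cd3e (-0.14) and Lck (-0.01) in knock-in glands, and for 10 uncalled members in wild-type and 13 in knock-in glands. Normexp turned Icos in knock-in glands to 0.02, and within slide 3, with 1 knock-in day 18 array, it was 0.25. The cause was not tested. No paired analysis was possible because the animal numbers all differ between the groups. Probes near background, such as those of Gzmk, Sh2d1a, Bcl11b and Tcf7, have the least certain levels.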
